A study of Mus musculus with 2 samples.

Results

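The family of miR-148 and miR-152 in the mouse consists of 3 microRNA genes, Mir148a, Mir148b and Mir152, which were taken by their gene symbols from the 2202 microRNA genes counted. All 3 were found in both tables, and all 3 had at least 10 counts over the 2 libraries, the minimum for the comparison between them. The RNA came from a calf muscle, the gastrocnemius, of male B6CASTF1/J mice aged 2 months, hybrids of the strains C57BL/6J and CAST/EiJ. The series holds 1 group with 2 libraries, labelled biological replicates 1 and 2, each from inserts under 30 nt and each with a tissue sample of its own. The labels number the males separately but give both samples 1 donor identifier, and they name no treatment or altered allele. With no second group, the values below describe how abundant the 3 genes were and how far the libraries differed.

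A microRNA gene is transcribed into a hairpin, from which a short RNA is cut out of each arm and loaded into the silencing complex. The seed, bases 2 to 8 of the loaded RNA, pairs with messenger RNAs, so microRNAs with a common seed share many targets. This family is known for silencing Dnmt1, the maintenance DNA methyltransferase, and miR-148a also for acting on the low-density lipoprotein receptor in liver and on Rock1 during the differentiation of myoblasts.

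The family is defined by the 3p arm, and its mature sequences are shown first because everything counted here rests on telling them apart. Capitals mark the seed, all sequences are written 5′ to 3′, and they are from RefSeq on GRCm38.p6, in which all 3 genes were matched by symbol.
miR-148a-3p: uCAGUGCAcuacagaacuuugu
miR-148b-3p: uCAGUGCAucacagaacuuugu
miR-152-3p: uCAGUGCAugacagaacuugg
The seed CAGUGCA is held at this place by these 3 of the 1679 mature mouse microRNAs in the RefSeq table and by no other of them. Counted from 1 at the 5′ end, miR-148a-3p and miR-148b-3p were identical at 20 of 22 bases and differed by C9U and U10C, with the miR-148a base first. Between miR-148a-3p and miR-152-3p, 18 of 21 bases were identical, and the differences were C9U, U10G and U20G. Between miR-148b-3p and miR-152-3p, 19 of 21 were identical, with C10G and U20G.

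The 5p arms are less alike. They are printed because the deposited counts are per gene and add the reads of both arms, which cannot be told apart here.
miR-148a-5p: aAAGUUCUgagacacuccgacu
miR-148b-5p: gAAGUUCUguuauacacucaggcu
miR-152-5p: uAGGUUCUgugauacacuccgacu
miR-148a-5p and miR-148b-5p had the seed AAGUUCU in common, and among the 1679 mature sequences only these 2 held it there. The seed of miR-152-5p, AGGUUCU, was found at that place in no other mature sequence of the table. The longest run that miR-148a-5p and miR-152-5p had in common was 11 bases.

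How well reads can be assigned to 1 gene was measured on the annotated hairpins of all 2202 genes. The longest stretch that Mir148a had in common with any other gene was 15 bases, with Mir148b. For Mir152 it was 12 bases, with Mir148a. For each 3p arm, the closest stretch in another gene had 2 mismatches, and that gene was another member of the family. For the 5p arms the closest stretch had 5 mismatches or more. A full-length read of a 3p arm is thus 2 bases from a second member. How many mismatches the authors' alignment allowed is not given in the sources used here. Matches elsewhere in the genome and CAST/EiJ alleles of these hairpins were not analysed here.

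The hairpins show how far the genes differ outside the arms, which are in capitals.
Mir148a hairpin: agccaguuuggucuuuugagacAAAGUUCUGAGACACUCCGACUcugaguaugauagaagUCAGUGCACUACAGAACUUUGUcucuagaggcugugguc
Mir148b hairpin: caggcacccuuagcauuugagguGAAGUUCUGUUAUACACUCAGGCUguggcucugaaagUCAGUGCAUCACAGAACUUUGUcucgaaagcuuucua
Mir152 hairpin: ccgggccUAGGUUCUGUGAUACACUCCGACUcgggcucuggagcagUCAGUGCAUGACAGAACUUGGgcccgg
Mir152 has the shortest hairpin, 73 bases against 99 and 97, and the highest GC content, 61.6% against 45.5% for Mir148a and 45.4% for Mir148b.

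By GENCODE M21 on mm10, Mir148a (ENSMUSG00000065505.1) lies at chr6:51269812-51269910 on the minus strand and overlaps no other annotated gene. Mir148b (ENSMUSG00000065560.1) lies at chr15:103285125-103285221 on the plus strand, in intron 1 of Copz1. Mir152 (ENSMUSG00000065515.1) lies at chr11:96850393-96850465 on the plus strand, in intron 1 of Copz2. Copz1 and Copz2 are paralogs that encode the zeta subunit of coatomer, the coat of vesicles that return from the Golgi to the endoplasmic reticulum. Both microRNA genes are on the strand of their host and overlap none of its exons. Mir152 starts 523 bases after the annotated start of Copz2, and Mir148b starts 12411 bases after that of Copz1.

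All 3 genes have 2 classes of neighbour in the same order, a feature that the choice of members did not use. The classes were picked after the annotation around the genes was seen. Going out from each microRNA gene, the nearest gene of the Nfe2 class of transcription factors came before the nearest Cbx gene, for a chromobox protein of heterochromatin. For Mir148a these were Nfe2l3 at a gap of 163 kb and Cbx3 at 200 kb. For Mir148b they were Nfe2 at 26.7 kb and Cbx5 at 45.3 kb. For Mir152 they were Nfe2l1 at 20.4 kb and Cbx1 at 41.8 kb. Mir148a stands farther from each class than the members within coatomer genes do. No other counted microRNA gene lay within 65 kb of any of the 3. The nearest were Mir6963 at a gap of 65.2 kb from Mir148b, Mir8103 at 213 kb from Mir152 and Gm22914 at 352 kb from Mir148a.

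**Figure D1:**
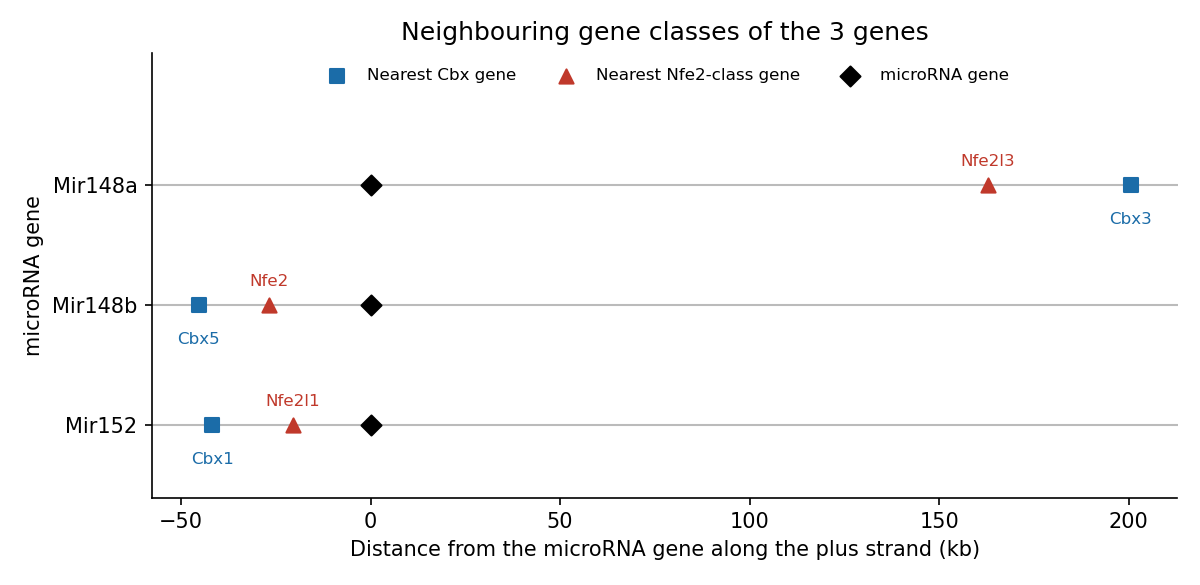
Distance in kb along the plus strand from each microRNA gene (black diamond) to its nearest Nfe2-class gene (red triangle) and its nearest Cbx gene (blue square). The order is the same in all 3 rows, and the Cbx gene lies at a gap of 200 kb from Mir148a, 45.3 kb from Mir148b and 41.8 kb from Mir152.

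The counts on microRNA genes came to 638779 in replicate 1 and to 2272132 in replicate 2, which is 3.56 times deeper. Multi-mapping reads, 75.2% and 74.4% of the total, are not in the gene counts, so each level below is a share of the reads assigned to 1 gene, in counts per 1000000 gene counts (CPM). Among the skeletal muscle markers, all 9 genes had counts in both libraries, and Mir206, the microRNA restricted to skeletal muscle, had 20325 and 48078 CPM. Of 6 neural markers, Mir9-1 had 1 count in replicate 2 and the other 5 were at 0, but all 6 have a stretch of at least 20 bases in common with another gene, and reads from such stretches are not counted. With 1 library per replicate, the binomial p-values and the intervals below measure counting error and not the spread between mice. Reads copied by PCR are not independent molecules, so even as counting error these intervals are too narrow.

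Together the 3 genes gave a small and nearly equal part of the gene counts in both libraries. Their counts summed to 523 in replicate 1 and 1811 in replicate 2. That is 819 CPM (exact Clopper-Pearson 95% interval 750.1 to 892) and 797 CPM (761 to 835), or 808 ± 15.3 CPM (SD, n = 2). The intervals of the 2 libraries overlap. The ratio of the summed CPM, replicate 2 over replicate 1, was 0.973 (exact 95% interval 0.883 to 1.08).

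Mir148a was counted 273 times in replicate 1 and 774 times in replicate 2. Its level was 427 CPM (378 to 481) and 341 CPM (317 to 366), or 384 ± 61.3 CPM (SD, n = 2). It ranked 87th of 2202 genes in replicate 1 and 94th in replicate 2, and its intervals do not overlap. Of the 2202 genes, only 406 had any count in replicate 1 and 521 in replicate 2, which bears on all ranks given here. The ranks also leave out multi-mapping reads, so genes with at least 20 bases in common with another gene can rank too low. The muscle marker Mir1a-2, which has such a stretch in common with Mir1a-1, ranked 101st by mean CPM. A rank above such genes is thus no sign of a higher level.

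Mir152 was counted 197 and 857 times. Its level was 308 CPM (267 to 355) in replicate 1 and 377 CPM (352 to 403) in replicate 2, or 343 ± 48.6 CPM. It ranked 94th in replicate 1 and 90th in replicate 2. Mir152 was thus higher in replicate 2 and Mir148a in replicate 1, and the intervals of Mir152 overlap at their ends, at 352 to 355 CPM.

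Mir148b was the least abundant member in both libraries, with 53 and 180 counts. Its level was 83.0 CPM (62.2 to 109) and 79.2 CPM (68.1 to 91.7), or 81.1 ± 2.65 CPM. It ranked 156th in replicate 1 and 159th in replicate 2, and its intervals overlap. With 53 counts, its interval in replicate 1 spans 27.9% of the value to each side on average, against 12.0% for Mir148a and 14.2% for Mir152.

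**Figure D2:**
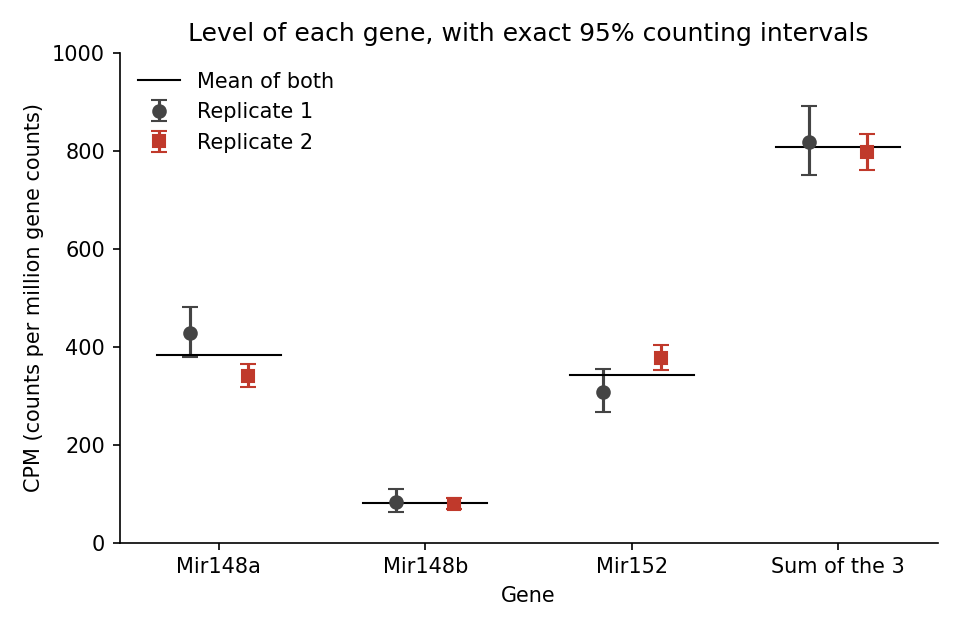
Level in CPM of each gene and of the sum of the 3 in replicate 1 (grey circles) and replicate 2 (red squares), with exact 95% counting intervals as error bars and the mean of both libraries as a line. Mir148a and Mir152 lie between 308 and 427 CPM and Mir148b at 79.2 and 83.0 CPM.

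Mir148b was last in both libraries. Its levels, 79.2 to 83.0 CPM, do not overlap those of the other 2 genes. Within each library Mir148a had 5.15 times (exact 95% interval 3.83 to 7.05) and 4.30 times (3.65 to 5.09) the counts of Mir148b, and Mir152 had 3.72 times (2.73 to 5.13) and 4.76 times (4.05 to 5.62). Mir148a and Mir152 changed places. Mir148a had 1.39 times (1.15 to 1.67) the counts of Mir152 in replicate 1 and 0.903 times (0.818 to 0.997) in replicate 2, or 1.14 ± 0.341 (SD, n = 2). The means of Mir148a and Mir152 therefore do not differ beyond the spread between the libraries. A mature microRNA is read whole, so these levels were not divided by length. Per 100 bases of hairpin, the mean level was 388 CPM for Mir148a, 470 CPM for Mir152 and 83.6 CPM for Mir148b, so the order of the first 2 turns with that choice while Mir148b stays lowest.

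As shares of the family's own counts, Mir148a gave 52.2% (exact 95% interval 47.8 to 56.6%) in replicate 1 and 42.7% (40.4 to 45.1%) in replicate 2. Mir152 gave 37.7% (33.5 to 42.0%) and 47.3% (45.0 to 49.7%). Mir148b gave 10.1% (7.68 to 13.0%) and 9.94% (8.60 to 11.4%). Mir148a held less and Mir152 more of the family in replicate 2, with intervals that do not overlap, while those of Mir148b do. Shares of a fixed total must balance, so these 3 values are not independent of each other.

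**Figure D3:**
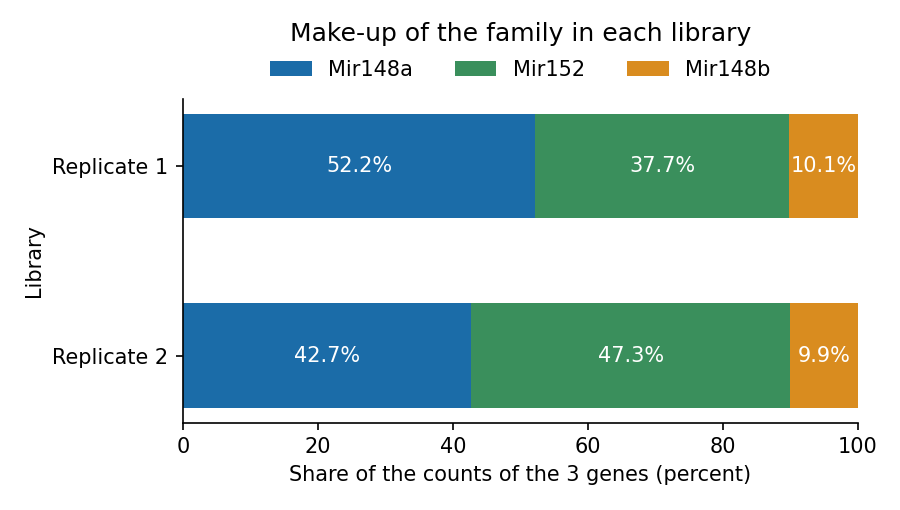
Share in percent of the counts of the 3 genes in each library, one bar per library with Mir148a in blue, Mir152 in green and Mir148b in orange. Mir148a held 52.2% in replicate 1 and 42.7% in replicate 2, and Mir152 held 37.7% and 47.3%.

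The libraries were compared over all 311 genes with 10 or more counts by an exact two-sided binomial test on the raw counts, with Benjamini-Hochberg adjustment over the 311. At an adjusted p under 0.05 the test called 40.5% of all genes, 23.2% higher in replicate 2 and 17.4% lower. Which direction was the more frequent changed with TMM scaling but not with DESeq2 size factors, which also gave 23.2% higher and 17.4% lower. Under TMM, by which each log2 ratio changes by -0.06, the called genes were 38.9% of all, with 18.3% on the higher side and 20.6% on the lower. In the family 2 of 3 genes passed. Mir148a was lower in replicate 2, at 0.797-fold (95% interval 0.693 to 0.918; exact binomial test, adjusted p = 0.00470). Mir152 was higher, at 1.22-fold (1.05 to 1.44; exact binomial test, adjusted p = 0.0269). Mir148b was at 0.955-fold (0.699 to 1.32; exact binomial test, adjusted p = 0.902). With TMM scaling Mir152 was at 1.17-fold and no longer passed (exact binomial test, adjusted p = 0.106). When edgeR's exact test counted the spread between the libraries as noise, at a coefficient of variation of 27.6%, it gave all 3 genes an adjusted p of 1. That noise was estimated from the same 2 libraries, so the differences under test were part of it and this outcome says little.

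All 3 differences were smaller than the median over the genes tested. The log2 ratio, replicate 2 over replicate 1 with 0.5 added to each count, was -0.33 for Mir148a, 0.29 for Mir152 and -0.08 for Mir148b. The median absolute log2 ratio was 0.29 over the 3 members and 0.39 over the 311 genes tested. Of the 311 genes, 135 had a smaller absolute log2 ratio than Mir148a, 122 a smaller one than Mir152 and 43 a smaller one than Mir148b. The median signed log2 ratio was -0.08 over the members and 0.04 over all genes tested.

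**Figure D4:**
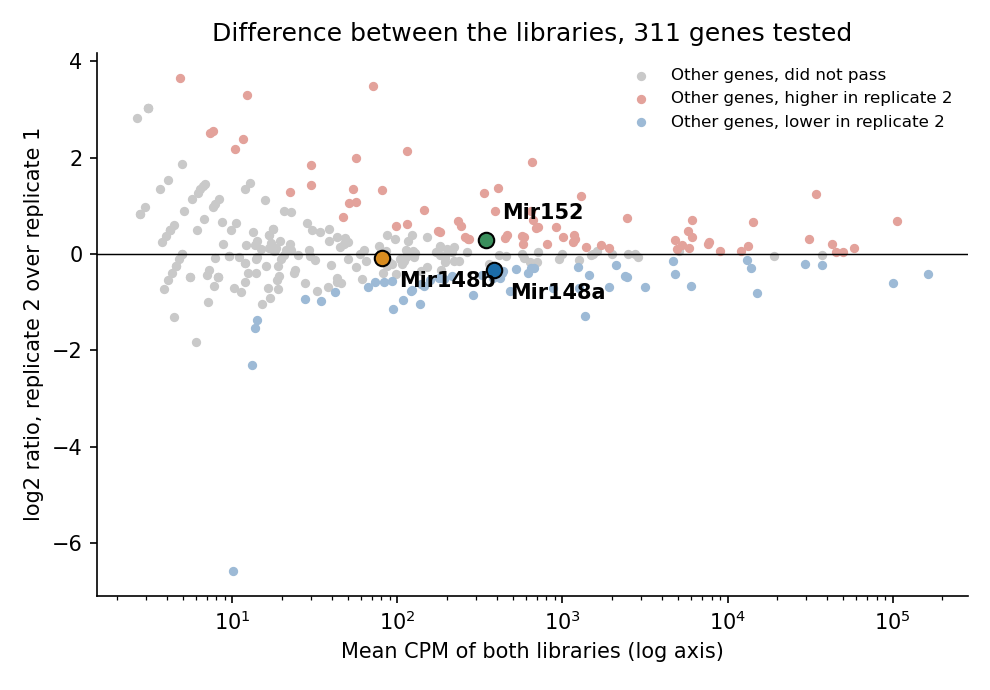
log2 ratio of replicate 2 over replicate 1 against mean CPM (log axis) for the 311 genes tested, grey where the exact binomial test did not pass, red where higher and blue where lower in replicate 2, with the 3 family genes as large labelled points. The family genes lie at -0.33, -0.08 and 0.29, well within the scatter of the other genes.

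MicroRNAs of other cell types also differed between the libraries. Summed over their lists, the skeletal muscle markers had 22884 and 52158 CPM in replicates 1 and 2, with 4 of 9 genes higher in replicate 2 and none lower, where the test called 23.2% of all genes higher. Mir206 gave most of the rise, and the other 8 summed to 2560 and 4079 CPM. The median log2 ratio of the 9 was 0.04, as over all genes tested, 4 of them had a negative log2 ratio, and 6 have at least 20 bases in common with another gene, so their multi-mapping reads are missing. The endothelial marker Mir126a had 81286 and 129798 CPM and was higher. The smooth muscle markers Mir143 and Mir145a had 123068 and 81451 CPM, both lower in replicate 2. The erythroid markers Mir451a and Mir144 had 6176 and 4688 CPM, both lower. The 4 leukocyte markers had 2542 and 2889 CPM, with 2 higher and 1 lower. The 6 epithelial markers summed to 56.4 and 40.5 CPM, where 4 were tested and Mir200c alone passed, lower in replicate 2. The liver marker Mir122 had 15.7 and 29.9 CPM and the islet marker Mir375 had 3.13 and 5.72 CPM, and neither passed. Mir148a was thus on the lower side with the smooth muscle and erythroid markers, the leukocyte marker Mir142 and the epithelial marker Mir200c. Mir152 was on the higher side with Mir126a, the leukocyte markers Mir150 and Mir155, and Mir206, Mir499, Mir208b and Mir486 among the muscle markers. With TMM scaling Mir152 did not pass. Of all genes tested, 23.2% were higher and 17.4% lower, so a shared side says little. The part of these cell types in the ratios of Mir148a and Mir152 was not tested. In whole tissue a different number of cells of a type and a different amount of RNA per cell cannot be told apart.

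The genes nearest in level were found by the distance between log2(CPM + 1) values over the 2 libraries. Nearest to Mir148a were Mir24-2 (443 and 313 CPM) and Mir30b (384 and 331 CPM), both lower in replicate 2 in CPM as Mir148a was. A choice by this distance favours a like direction. Mir24-2 passed as lower, and Mir30b did not pass (exact binomial test, adjusted p = 0.108). Nearest to Mir148b were Mir1306 (78.3 and 81.0 CPM) and Mir3102 (83.0 and 87.1 CPM). Mir152 had no neighbour as close. Its nearest were Mir30b, at a distance of 0.36, and Mir337 (415 and 407 CPM), at 0.44, against 0.13 for Mir24-2 from Mir148a and 0.09 for Mir1306 from Mir148b. Mir24-2 has at least 20 bases in common with Mir24-1, and reads from them are not in its count. With 2 libraries such likeness is one of level and says little of a pattern.

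The letters of the family's seed also stand elsewhere in microRNAs. Searched as CAGUGCA on the written strand, they were found in 17 of the 1679 mature sequences (1.01%), at bases 2 to 8 in the 3 family members and starting at base 1 in 7 others. Among these 7 are mature sequences of the family of miR-130 and miR-301, known for its work in blood vessels and in lipid metabolism. They are shown for their offset of 1 base, with the same letters in capitals.
miR-130a-3p: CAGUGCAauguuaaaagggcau
miR-301a-3p: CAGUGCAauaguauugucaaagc
Their own seed starts 1 base later and so differs from that of miR-148 and miR-152. The 5 genes listed for this second family leave out miR-130c, which is also among the 7. Of the 5, 3 had counts, and they summed to 3258 and 3142 CPM, or 3200 ± 81.6 CPM (SD, n = 2). Mir130a gave most of it, with 2752 and 2749 CPM. Mir301, the gene of miR-301a, had 490 and 375 CPM, close to the level of Mir148a, and Mir130b had 15.7 and 18.9 CPM. Mir301b and Mir721 had no count. Where their reads match 1 place, this sets a limit of 4.70 CPM in the first library and 1.32 CPM in the second. Of the 3 tested, Mir301 was lower in replicate 2, at 0.765-fold (exact binomial test, adjusted p = 0.000295), and the other 2 did not pass, where 17.4% of all genes tested were lower. Their median log2 ratio was -0.0022, against 0.04 over all genes tested.

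Other microRNAs known to act on the mRNAs of DNA methyltransferases, the enzymes that include the family's target Dnmt1, formed a list of 9 genes. They summed to 215478 and 218149 CPM, far above the 3 genes described here. Mir126a and Mir143 are also the endothelial marker and a smooth muscle marker above, so their values are not new here. Without Mir126a and Mir143, the other 7 summed to 13970 and 8944 CPM, a ratio of 0.640. Of the 9, 2 were higher in replicate 2, 5 were lower and 2 did not pass, against 23.2% of all genes tested higher and 17.4% lower. Their median log2 ratio was -0.67, against 0.04 over all genes tested. Like the other lists, this one was chosen with earlier results of these data known, so setting it beside all genes is description and no test. Those higher were Mir126a and Mir185 (739 and 1095 CPM), which like Mir148a is known to act on Dnmt1. Those lower were Mir143 and 4 genes of the miR-29 and miR-101 families, known to act on the de novo methyltransferases. Mir29a had 7333 and 4606 CPM, Mir29c had 1935 and 789 CPM, Mir101a had 1569 and 963 CPM and Mir101b had 2358 and 1463 CPM. Mir29c, Mir101a and Mir101b each have a near copy with at least 20 bases in common, so these 3 are uncertain. A stretch that differs by a mismatch was not counted as a near copy, so Mir29a and the others may be uncertain too.

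MicroRNAs of cholesterol and lipoprotein handling, a field in which miR-148a is known for the low-density lipoprotein receptor, formed a list of 8 genes, of which 7 had counts. They summed to 6669 and 6417 CPM, and 5 had enough counts for the test. Mir128-1 was higher in replicate 2 (1025 and 1339 CPM), Mir27b (4898 and 4449 CPM) and Mir144 (711 and 577 CPM) were lower, and 2 did not pass, where 40.5% of all genes tested were called. The median log2 ratio of the 5 was 0.22, against 0.04 over all genes tested. Mir33, the intronic microRNA of Srebf2, had 1 and 7 counts, and Mir758 had 1 and 0. Mir128-1, Mir27b and Mir758 have such a near copy too. Mir144 is also an erythroid marker above, and Mir130b and Mir301b are also in the list of miR-130 and miR-301.

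**Figure D5:**
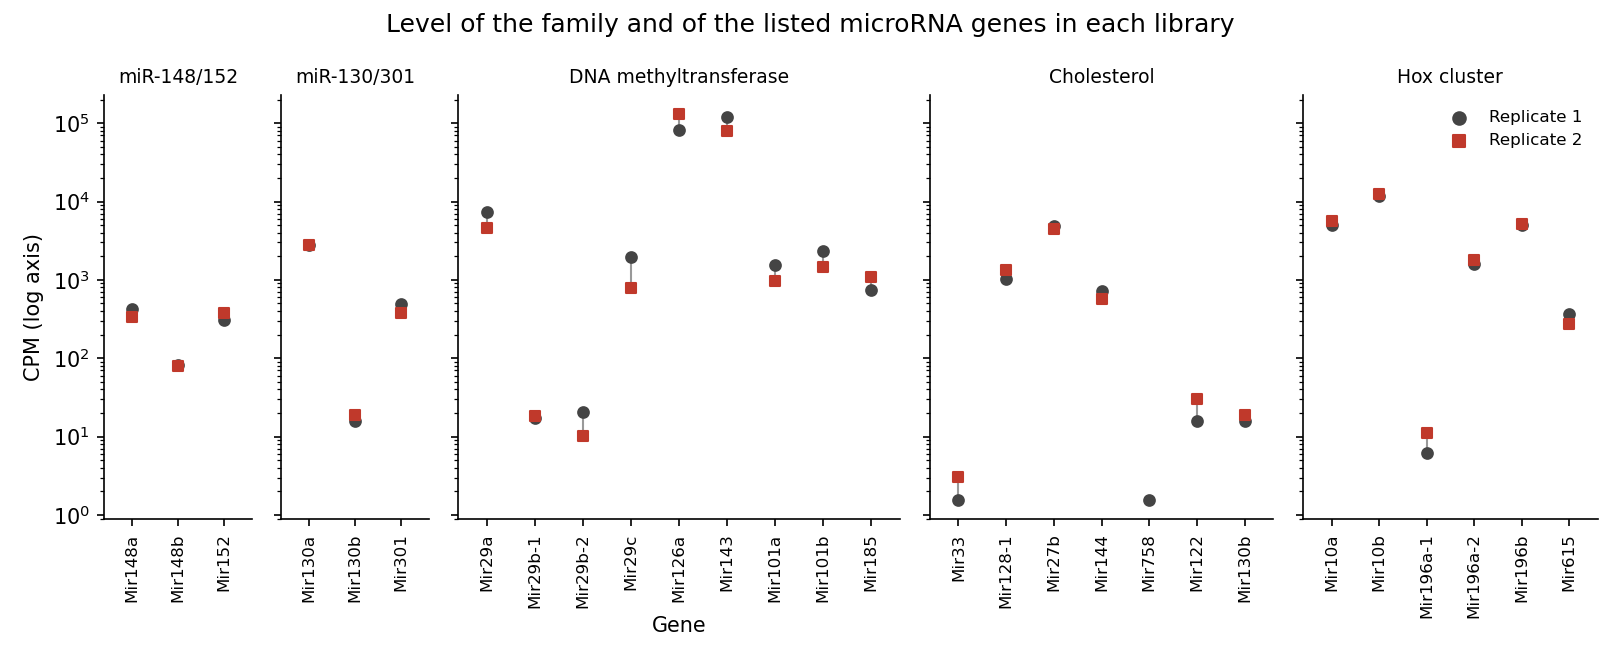
Level in CPM (log axis) in replicate 1 (grey circles) and replicate 2 (red squares) of the 3 family genes and of the listed microRNA genes with counts, one panel per list, a value of 0 not being drawn. Mir301 at 490 and 375 CPM and Mir615 at 371 and 276 CPM lie near Mir148a and Mir152.

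Each member shares its chromosome with a Hox cluster, a row of genes that regulate the body plan, and these clusters hold microRNA genes of their own. Inside Hoxa, on the chromosome of Mir148a, Mir196b had 4986 and 5166 CPM. Inside Hoxc, on that of Mir148b, Mir196a-2 had 1586 and 1816 CPM and Mir615 had 371 and 276 CPM. Inside Hoxb, on that of Mir152, Mir10a had 4988 and 5642 CPM and Mir196a-1 had 6.26 and 11.0 CPM. Mir10b, in Hoxd, where no family member lies, had 11718 and 12288 CPM. Each of the 3 chromosomes thus carries a Hox cluster microRNA with a higher CPM in both libraries than its member of the family. Of the 6, 3 were higher in replicate 2, Mir615 was lower and 2 did not pass, against 23.2% of all genes tested higher and 17.4% lower, with a median log2 ratio of 0.12 against 0.04. With TMM scaling 2 were higher in place of 3. Mir196a-1 and Mir196a-2 are near copies of each other and uncertain. Stretches that differ by a mismatch were not counted as near copies, so the other 4 may be uncertain too.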

How the data were processed

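Gastrocnemius small RNA was sequenced in 2 libraries, 1 per biological replicate. The authors deposited raw counts of reads per microRNA gene on mm10 with GENCODE M21, per the text files deposited beside them. No aligner or counter is named in the sources used here. Each table has 3 count columns without names. The second was read as the strand of the gene, since it held the larger total of the stranded columns, and was used throughout. Rows that name no gene (unmapped 5.97% and 6.93%, multi-mapping 75.2% and 74.4%, no feature 1.62% and 2.48% of all reads) stayed out of library sizes.

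From these counts CPM, exact Clopper-Pearson 95% intervals and the mean and SD were computed. A count of 0 allows up to 3 counts. The libraries were compared at genes with a summed count of at least 10, by a conditional binomial test (exact, two-sided, Benjamini-Hochberg threshold 0.05). The test was run on simulated data. Beyond set fold changes, these held counting error alone, which the test assumes, so they cannot check its calls on real libraries. Symbols, positions and hairpins came from GENCODE M21 and RefSeq GRCm38.p6, the same assembly as mm10. Members and lists were chosen with earlier results of these data known. Named genes are the members, the 2 genes nearest to each in log2(CPM + 1), and list genes with counts; list genes at 0 are also named. Alternatives were unstranded counts, TMM and DESeq2 scaling, level per length, a prior count of 1 in place of 0.5, no minimum count, a negative binomial exact test with edgeR's common dispersion, and each library left out. Software was Python 3.11.15, pandas 2.3.3, numpy 2.4.6, scipy 1.17.1, matplotlib 3.10.9, R 4.3.3, edgeR 4.0.16 and DESeq2 1.42.0.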

Additional observations from a re-analysis of the deposited data

How the results depend on the processing

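Ignoring strand left the counts of the 3 genes as they were and made the library totals smaller, so the mean levels became 548 CPM for Mir148a, 116 CPM for Mir148b, 490 CPM for Mir152 and 1154 CPM for their sum. Per 100 bases of hairpin the mean share was 8.88% for Mir148b and 49.9% for Mir152. TMM scaling gave Mir152 a log2 ratio of 0.23 and ended its call. With the negative binomial test of edgeR the log2 ratios were -0.33 for Mir148a and 0.29 for Mir152, both without a call, and 2 of 311 genes were called in place of 126, with 20 at an unadjusted p under 0.05. The dispersion of that test came from the same 2 libraries that it compared. The other 4 settings called 114 to 126 genes. Under TMM and DESeq2 scaling, 5 of 6 log2 ratios of the family genes kept their direction and their side of the threshold, and 8 of 8 mean levels moved by less than 1 SD. A prior count of 1 cannot change the binomial p, and unstranded counts cannot change the shares, since no member had a count on the other strand. Leaving out a library gave levels of 341 to 427 CPM for Mir148a, 79.2 to 83.0 for Mir148b and 308 to 377 for Mir152, which with 2 libraries are their own values and no check of stability. No paired analysis was possible because there is 1 group. Depth limits Mir148b most, with 53 counts in replicate 1.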
